A study of Homo sapiens with 24 samples.

Results

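A set of 10 genes of DNA end resection was followed through a PRO-seq series on TRPS1, a repressive GATA-family transcription factor. The members were RBBP8, its paralog RBBP8NL, MRE11, RAD50, NBN, BRCA1, BARD1, EXO1, DNA2 and BLM. RBBP8 and RBBP8NL were chosen by their response to dTAG-13 in these same libraries, RBBP8 because it was higher and RBBP8NL because it was lower. Their dTAG-13 values are therefore given as a description with no test. The other 8 members were chosen by function, with earlier results of these data known. All 10 of the members, of 60605 genes in the count table, passed the filter on low counts.

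PRO-seq maps RNA polymerases that are engaged on the genome, so a gene's count follows its transcription rather than its stored RNA. The cells were T47D, a luminal breast cancer line that expresses the estrogen receptor, with a degron tag on TRPS1. Clones 28, 35 and 39 each received 0.1% v/v DMSO or dTAG-13 at 100 nM, for 90 minutes, with 4 libraries in each of the 6 groups and 24 in all. dTAG-13 links the tag to a ubiquitin ligase, which leads to breakdown of the tagged protein. All groups carried the tagged TRPS1, so the controls were tagged cells as well. Each line is 1 clone, and the clones came from cells that had already been through an earlier round of drug selection and cloning. Per the labels, the replicates were handled at separate times within 1 day, and the DMSO and dTAG-13 dishes of a time were harvested together. The replicates are separate dishes of the same clone, so the p-values measure the spread between dishes.

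Total counts ranged from 3226718 to 9575803 per library with a median of 5042122. The luminal markers ESR1, GATA3, FOXA1, KRT8, KRT18 and KRT19 were transcribed in every library, with ESR1 between 1197 and 1898 CPM (counts scaled to a common library size), whereas the basal keratins KRT5 and KRT14 had at most 2 and 5 counts. The basal factor TP63 was at 22 to 192 counts and the fibroblast collagen COL1A1 at 35 to 108. KRT19 was lower with dTAG-13 (log2 fold change -0.13, SE 0.030, adjusted p = 0.0346). The filter on low counts left 1 of 3 basal, 2 of 3 fibroblast and 2 of 3 immune markers to test. None of the markers so tested was called for the treatment. TRPS1 transcription with dTAG-13 exceeded that in DMSO in 12 of 12 pairs, by 0.19 on the log2 scale (SE 0.083, adjusted p = 0.733, or 6.65e-04 with each pair as a block). The degron acts on the protein, so this value is no check of the labels.

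End resection trims the 5′ strand on each side of a DNA double-strand break, which commits the break to repair by homologous recombination. RBBP8 encodes CtIP, the cofactor that switches on the MRE11 nuclease and so starts resection. MRE11 works with RAD50, an ATPase that bridges DNA ends, and with NBN, the adaptor of the complex. BRCA1 and BARD1 form a ubiquitin ligase that binds CtIP and favors resection. EXO1, a 5′ exonuclease, and DNA2, a nuclease that works with the BLM helicase, extend the trimmed strand. RBBP8NL encodes a protein related to the N-terminal part of CtIP.

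RBBP8 has 2 starts in RefSeq on GRCh38.p14, 0.539 kb apart on the plus strand of chromosome 18. The 250 bases before each start are shown because RBBP8 and a gene on the opposite strand that begins here had higher counts with dTAG-13. These counts are of whole genes and not of this site. The capital letter marks the annotated first base of ENSG00000265943, a long noncoding RNA gene on the opposite strand. It lies at position 22933764, which is 103 bases before the downstream RBBP8 start.
RBBP8 upstream start, chr18:22933078-22933327: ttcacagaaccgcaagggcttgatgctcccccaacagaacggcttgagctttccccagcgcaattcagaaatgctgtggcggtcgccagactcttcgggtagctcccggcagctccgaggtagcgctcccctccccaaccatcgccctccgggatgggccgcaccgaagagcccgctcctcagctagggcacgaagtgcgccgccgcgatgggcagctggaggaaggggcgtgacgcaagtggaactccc
RBBP8 downstream start, chr18:22933617-22933866: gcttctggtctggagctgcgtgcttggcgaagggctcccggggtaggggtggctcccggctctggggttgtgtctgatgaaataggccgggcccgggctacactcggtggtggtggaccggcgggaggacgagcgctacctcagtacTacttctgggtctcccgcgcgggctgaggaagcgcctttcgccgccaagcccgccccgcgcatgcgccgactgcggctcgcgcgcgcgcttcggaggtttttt

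Neither window held a GATA word (AGATAA, also with T as its first or G as its last base, on either strand), an estrogen receptor half-site (AGGTCA) or an E2F word (TTTCCCGC, TTTCGCGC, TTTGCCGC or TTTGGCGC). Of 35116 windows of the same length before RefSeq starts, 22.3% held a GATA word, 12.1% the half-site and 2.8% an E2F word. Windows were found for 7 members (RBBP8, MRE11, RAD50, BRCA1, BARD1, EXO1 and BLM). A GATA word was present before both BRCA1 starts and before the downstream EXO1 start, and the half-site before the upstream BRCA1 start. The E2F words were in no window of these members.

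With dTAG-13, RBBP8 was above its DMSO partner in 12 of 12 pairs and RBBP8NL was below it in 12 of 12. A pair is the DMSO and the dTAG-13 library of a clone with the same replicate number. RBBP8 in Clone 28 was at 245.6, 216.6, 166.5 and 175.8 CPM in DMSO replicates 1 to 4 and at 303.4, 261.1, 233.3 and 214.6 CPM with dTAG-13. In Clone 35 it was at 213.4, 172.5, 153.2 and 149.3 CPM in DMSO and at 231.9, 199.4, 186.2 and 190.0 CPM with dTAG-13. In Clone 39 it was at 450.6, 373.7, 352.9 and 330.8 CPM in DMSO and at 485.7, 436.1, 394.7 and 413.6 CPM with dTAG-13. The groups overlapped in each clone, where the DMSO library of replicate 1 (in Clone 28 also of replicate 2) lay above the lowest dTAG-13 library, and no pair ran the other way.

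The fitted log2 fold change of RBBP8 was 0.25 (SE 0.078) over the 3 clones, which is a rise of 19.2%. It was 0.33 (SE 0.14) in Clone 28, 0.23 (SE 0.14) in Clone 35 and 0.20 (SE 0.14) in Clone 39. The 12 pair differences had a mean of 0.26 ± 0.11 (SD, n = 12) and ran from 0.11 to 0.49. All were positive, and the SE of the fold change was 0.027 once each pair was given its own term.

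**Figure D1:**
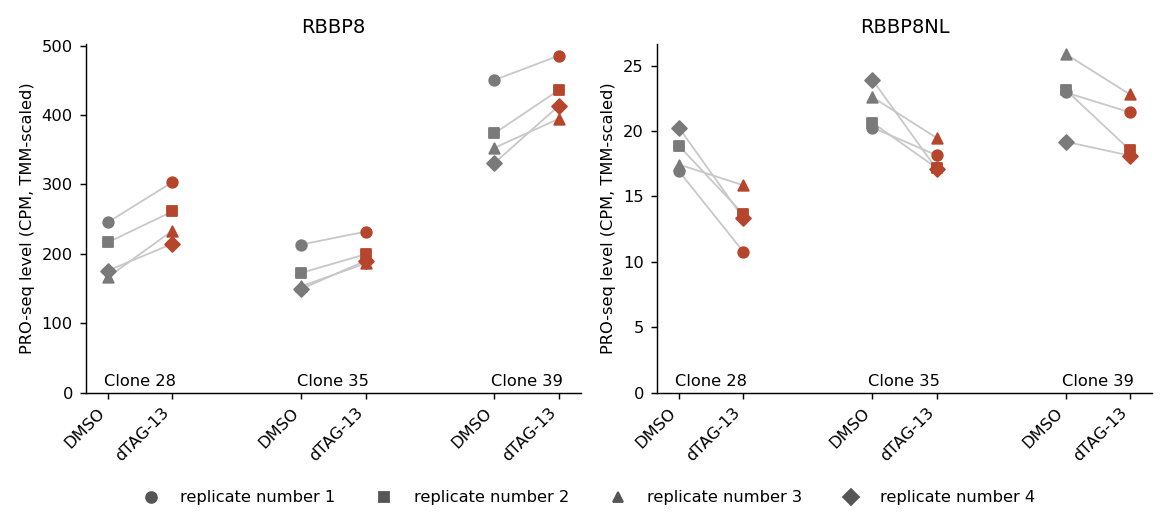
PRO-seq level of RBBP8 (left) and RBBP8NL (right) in each of the 24 libraries, in CPM after TMM scaling, on axes that start at 0. Gray points are DMSO, red points dTAG-13, marker shapes are replicate numbers and gray lines join the libraries of a pair; every RBBP8 line goes up and every RBBP8NL line goes down.

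RBBP8NL had far fewer reads, between 45 and 186 counts per library against 774 to 2258 for RBBP8. Counting error alone is 14.9% at its lowest count. In Clone 28 it was at 16.9, 18.9, 17.4 and 20.2 CPM in DMSO and at 10.8, 13.6, 15.8 and 13.3 CPM with dTAG-13. In Clone 35 it was at 20.3, 20.6, 22.6 and 23.9 CPM in DMSO and at 18.1, 17.2, 19.5 and 17.1 CPM with dTAG-13. The treatment groups did not overlap in either of these clones. RBBP8NL was chosen for being lower, so this is a description, and the share of all genes without overlap is not given here. In Clone 39 it was at 22.9, 23.2, 25.9 and 19.2 CPM in DMSO and at 21.4, 18.5, 22.8 and 18.1 CPM with dTAG-13, where the groups overlapped.

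The log2 fold change of RBBP8NL was -0.30 (SE 0.069) over the 3 clones, a change of -18.7%. It was -0.44 (SE 0.12) in Clone 28, -0.28 (SE 0.11) in Clone 35 and -0.18 (SE 0.12) in Clone 39. The pair differences had a mean of -0.30 ± 0.19 (SD, n = 12) and ran from -0.63 to -0.08. For both paralogs the value farthest from 0 was in Clone 28, and no test of this difference between the clones is given for them. Over all 22326 genes tested, 0.551% were called for the treatment at an adjusted p under 0.1, and 2.33% with each pair as a block. These shares stand only as background here, because the paralogs were picked from this contrast.

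The ratio of RBBP8 to RBBP8NL counts within a library is free of library scaling. Its median went from 10.5 in DMSO to 17.6 with dTAG-13 in Clone 28, from 7.57 to 11.4 in Clone 35, and from 16.7 to 22.8 in Clone 39. The ranges of the ratio were 8.69 to 14.5 against 14.7 to 28.2 in Clone 28, which did not overlap. They were 6.24 to 10.5 against 9.56 to 12.8 in Clone 35 and 13.6 to 19.6 against 17.3 to 23.5 in Clone 39, both with overlap. This ratio compares the balance of the paralogs between libraries and not their levels per length. Its rise follows from the choice of both genes by this contrast in opposite directions, so it is a description with no test.

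None of the 8 members chosen by function passed the test for the treatment (edgeR quasi-likelihood test with Benjamini-Hochberg adjustment over all genes), also with the pairs as a block, against a background of 0.551% without and 2.33% with the block. Their log2 fold changes ran from -0.02 to 0.09 with a median of 0.04, and 6 of the 8 were above 0, beside a median of -0.0018 over all genes. Without the block their SEs were between 0.041 and 0.088, so the estimates were at most 1.87 SEs from 0. With the block the SEs were smaller. RAD50, with the lowest adjusted p of the 8, was then at 0.086 (SE 0.028, adjusted p = 0.129), which is farther from 0 in SEs.

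Among MRE11, RAD50 and NBN, the complex that CtIP activates, RAD50 had the lowest adjusted p. Its DMSO libraries were at 104.3, 118.9 and 133.1 CPM (lowest, median, highest) and its dTAG-13 libraries at 113.1, 127.6 and 143.7 CPM. Its dTAG-13 library was the higher in 11 of 12 pairs, by 0.08 on the log2 scale (SE 0.045, adjusted p = 0.852, or 0.129 with the block). A readthrough gene, ENSG00000283782, covers 99.7% of RAD50 on the same strand and had a median count of 924.5 against 589.5 for RAD50, so the reads of RAD50 cannot be told apart from those of a transcript that runs through it.

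NBN was at 61.9, 69.5 and 84.8 CPM in DMSO and at 65.2, 74.1 and 89.7 CPM with dTAG-13 (log2 fold change 0.09, SE 0.050, adjusted p = 0.899). In Clone 28 it was higher in 4 of 4 pairs, by 0.22 (SE 0.086, adjusted p = 0.859), and this value passed the threshold with the pairs as a block (adjusted p = 0.0527). In Clones 35 and 39 its log2 fold changes were 0.04 (SE 0.084) and 0.00134 (SE 0.087). In Clone 28 alone 0.0537% of all genes were called without the block and 1.18% with it, and in Clones 35 and 39 0% were called without it. MRE11 was at 94.2, 122.4 and 141.2 CPM in DMSO and at 103.1, 122.5 and 146.7 CPM with dTAG-13 (log2 fold change 0.06, SE 0.041, adjusted p = 0.957).

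The ligase subunits and the extension enzymes had small values. BRCA1 had a log2 fold change of 0.02 (SE 0.048) and BARD1 of 0.05 (SE 0.043). EXO1 was at 0.03 (SE 0.076), DNA2 at -0.01 (SE 0.080) and BLM at -0.02 (SE 0.088). Adjusted p-values of these 5 were between 0.991 and 1.000. BLM was the least precise, with 53 to 220 counts per library.

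**Figure D2:**
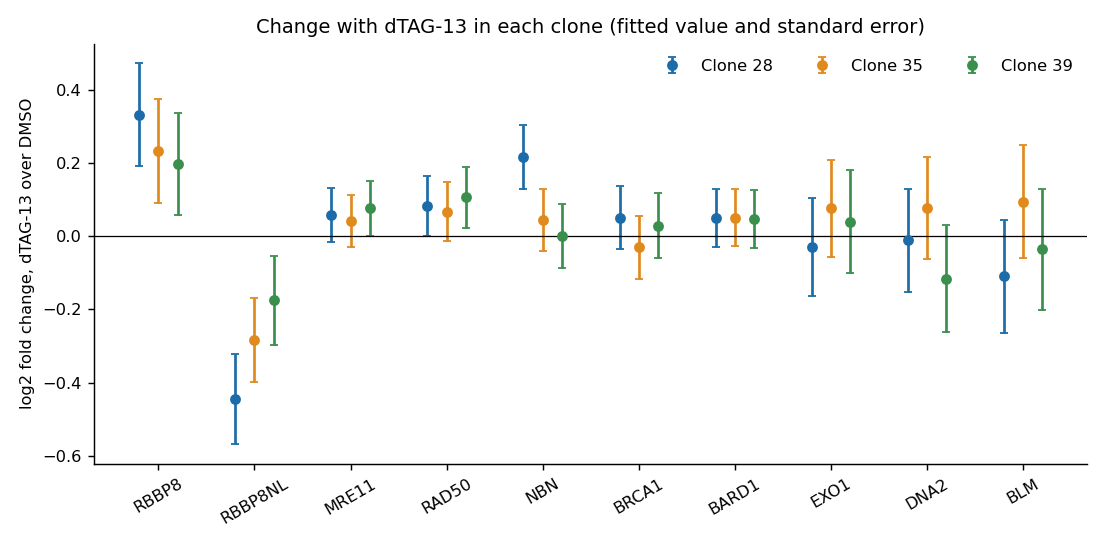
Log2 fold change of dTAG-13 over DMSO for each member in Clone 28 (blue), Clone 35 (orange) and Clone 39 (green), as the fitted value with its SE from 4 against 4 libraries. RBBP8 is above 0 and RBBP8NL below 0 in each clone, and the other 8 members lie near 0 except NBN in Clone 28, at 0.22.

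The difference between clones in the response was tested for the 8 members chosen by function, and none was called. Of all genes tested, 0% were called in that comparison, with 407 at an unadjusted p under 0.05 and 1 called with the block. NBN had the lowest unadjusted p of the 8, 0.193.

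The opposite strand at RBBP8 also changed. ENSG00000265943 runs from position 22933764 back to 22699481 and ENSG00000266850 lies within it between 22723491 and 22907721, so the reads of these long noncoding RNA genes can be shared. With dTAG-13 the former was higher in 12 of 12 pairs, by 0.24 on the log2 scale (SE 0.057, adjusted p = 0.0599), and the latter in 11 of 12, by 0.29 (SE 0.068, adjusted p = 0.0574). Together they overlap the part of the GENCODE span of RBBP8 (chr18:22798261-23026488) that lies before the RefSeq starts. Whether the counting used strand is not given in the sources used here. TH2LCRR, which lies inside RAD50 on the opposite strand for 15.8 kb, had 0 to 13 counts per library while RAD50 had 376 to 1173, or 7.08 counts per kb, as counts kept apart by strand would give.

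None of the genes flanking the paralogs passed the test for the treatment. The nearest genes that passed the filter were GATA6, 596 kb before RBBP8, and CABLES1, 108 kb after it, with log2 fold changes of 0.0068 (SE 0.10, adjusted p = 1.000) and 0.04 (SE 0.050, adjusted p = 1.000). RBBP8NL (chr20:62410237-62427539, minus strand) lies between CABLES2, 2.95 kb to the left, and GATA5, 36.0 kb to the right, so each paralog sits between a CABLES and a GATA gene. CABLES2 was at -0.0055 (SE 0.073, adjusted p = 1.000). GATA5, with 6 to 28 counts per library, was at -0.27 (SE 0.15, adjusted p = 0.883). MIR4741, a microRNA gene just after the upstream RBBP8 start, had 5 to 27 counts and did not pass the test (adjusted p = 0.991).

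Per length of the GENCODE span, DMSO levels of the members ran from 0.21 ± 0.040 CPM per kb for BLM to 1.82 ± 0.23 CPM per kb for DNA2 (SD, n = 12). EXO1 came next at 1.63 ± 0.28, followed by MRE11 at 1.53 ± 0.20, BARD1 at 1.34 ± 0.14 and RAD50 at 1.33 ± 0.11 CPM per kb. RBBP8NL was at 1.21 ± 0.16, RBBP8 at 1.10 ± 0.44, BRCA1 at 1.02 ± 0.11 and NBN at 0.90 ± 0.089 CPM per kb. Neighbors in this order differed by less than the larger of their SDs, except BRCA1 and NBN, and NBN and BLM. RBBP8 moves to 2.23 CPM per kb, the top of the order, when its counts are divided by the shorter RefSeq span of 112.3 kb instead of 228.2 kb, so its place depends on the annotation used. NBN moves in the same way, from 0.90 to 1.38 CPM per kb on a RefSeq span of 51.3 kb, which puts it above BRCA1 at 1.02. On either length RBBP8 had the largest spread relative to its mean.

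The clones differed in RBBP8 before any treatment. This comparison of DMSO libraries is not the contrast that chose RBBP8, but those libraries are part of that contrast. RBBP8 was also chosen with earlier results of these data known. Its DMSO level was 377 ± 52 CPM in Clone 39, 201 ± 37 in Clone 28 and 172 ± 29 in Clone 35 (SD, n = 4), and Clone 39 overlapped neither of the others. Clone 39 was 1.88-fold above Clone 28 (log2 0.91, SE 0.14, adjusted p = 6.28e-05) and 2.20-fold above Clone 35 (log2 1.14, SE 0.14, adjusted p = 4.36e-06). Clones 28 and 35 were not distinguishable (log2 -0.23, SE 0.14, adjusted p = 0.533), although the call was made with the replicate number as a block (adjusted p = 2.42e-04). The gap between Clone 39 and the other clones was thus larger than the change with dTAG-13 in any clone. With dTAG-13 the order was the same, at 433 ± 39, 253 ± 39 and 202 ± 21 CPM.

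The DMSO level of RBBP8NL was 18.4 ± 1.5 CPM in Clone 28, 21.9 ± 1.7 in Clone 35 and 22.8 ± 2.8 in Clone 39 (SD, n = 4), and the test over the clones missed the threshold (adjusted p = 0.123, or 0.0666 with the replicate number as a block). Clone 39 was above Clone 28 by 0.30 on the log2 scale (SE 0.12, adjusted p = 0.0713, or 0.0398 with the block), and the other pairs of clones were not called (adjusted p = 0.312 and 0.897).

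Of the 10 members, 4 were called over the clones in DMSO, where 28.5% of all genes were called: RBBP8 (adjusted p = 4.33e-06), MRE11 (4.33e-04), BARD1 (0.0128) and BRCA1 (0.0325). MRE11 was at 134 ± 6.9 CPM in Clone 28, 123 ± 8.5 in Clone 35 and 103 ± 9.8 in Clone 39, so it was lowest in the clone where RBBP8 was highest. Clone 39 was lower in MRE11 than Clone 28 by a log2 value of -0.39 (SE 0.074, adjusted p = 1.48e-04) and than Clone 35 by -0.27 (SE 0.074, adjusted p = 0.00848). BARD1 was lowest in Clone 35, at 98.9 ± 9.1 CPM against 117 ± 2.7 in Clone 28 and 121 ± 6.1 in Clone 39. BRCA1 was at 143 ± 6.0 CPM in Clone 28, 126 ± 7.9 in Clone 35 and 116 ± 12 in Clone 39.

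With the replicate number as a covariate, 9 of the 10 members were called over the clones against 39.7% of all genes, the exception being RAD50 (adjusted p = 0.535). EXO1, DNA2 and BLM, the nucleases and helicase of the extension step, then reached adjusted p-values of 4.56e-06, 5.39e-04 and 0.00315, and each was highest in Clone 28. EXO1 was at 89.1 ± 5.2 CPM there against 72.2 ± 7.4 in Clone 35 and 69.6 ± 17 in Clone 39. NBN was highest in Clone 39 (75.8 ± 6.7 CPM) and lowest in Clone 28 (66.0 ± 6.4 CPM).

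**Figure D3:**
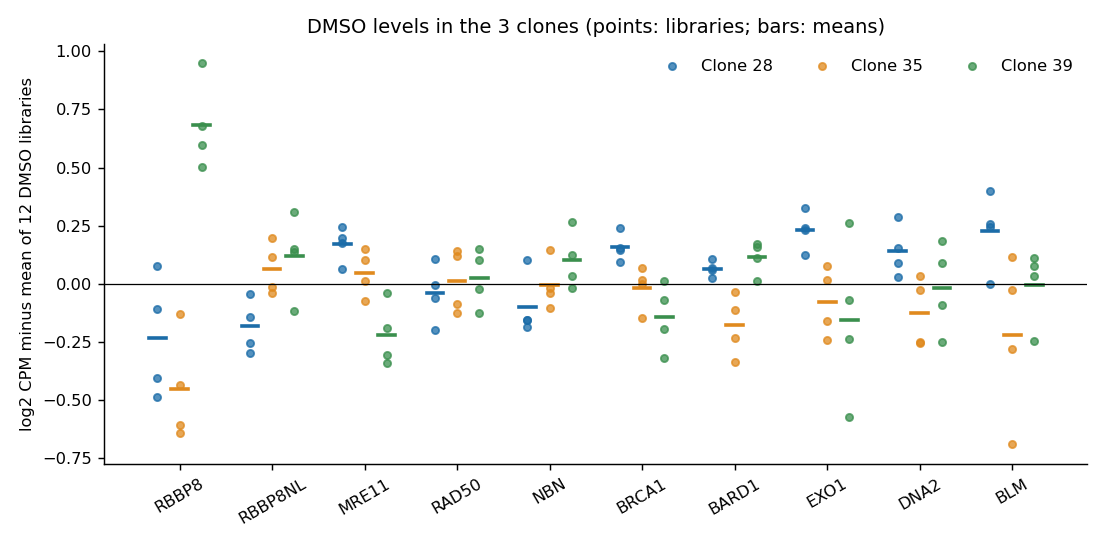
Log2 CPM of each member in the 12 DMSO libraries, relative to the mean of those libraries, with a point for each library and a bar for the mean of each clone. RBBP8 in Clone 39 (green) stands above every library of Clones 28 (blue) and 35 (orange), whereas MRE11 is lowest in Clone 39.

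Most members differed by replicate number. In a model with clone and treatment, 9 of 10 members were called over the 4 numbers, where 37.4% of all genes were called, and RBBP8NL was the exception (adjusted p = 0.416). The replicates were harvested at different times. The order of the times is not given in the sources used here. Nor is it given whether a number stands for the same time in each clone. The members fell into 2 sets by direction.

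RBBP8, RAD50 and NBN were highest in replicate 1. RBBP8 averaged 322 CPM over the 6 libraries of replicate 1, 277 in replicate 2, 248 in replicate 3 and 246 in replicate 4. The log2 difference of replicate 4 to replicate 1 was -0.41 (adjusted p over the 4 numbers 1.05e-15), beside the fitted 0.25 for dTAG-13. In each of the 6 groups the libraries of replicates 1 and 2 were above those of replicates 3 and 4. The same held for RAD50 in 6 of 6 groups, with means of 134, 131, 113 and 117 CPM and a log2 difference of -0.19 (adjusted p = 2.58e-07). NBN averaged 82.2 CPM in replicate 1 and 70.4, 70.1 and 68.8 CPM in the others (log2 difference of replicate 4 to 1 -0.26, adjusted p = 2.86e-05).

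The extension enzymes and the ligase ran the other way. DNA2 averaged 90.1, 97.6, 114 and 118 CPM in replicates 1 to 4, with replicates 3 and 4 above 1 and 2 in 6 of 6 groups (log2 difference of replicate 4 to 1 0.40, adjusted p = 5.05e-10). EXO1 averaged 67.2, 74.4, 79.8 and 88.9 CPM (0.42, adjusted p = 1.27e-08) and BLM 16.9, 19.6, 23.3 and 23.4 CPM (0.47, adjusted p = 1.16e-05). Each of these enzymes was higher in replicate 4 than in replicate 1 in 6 of 6 groups. BRCA1 (0.25, adjusted p = 3.85e-06) and MRE11 (0.18, adjusted p = 5.08e-04) were also higher in 6 of 6, and BARD1 (0.19, adjusted p = 0.00350) in 5 of 6. With the 12 DMSO libraries alone BARD1 was not called (0.11, adjusted p = 0.401) and the other 8 members called before were.

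Genes of DNA synthesis and mitosis moved with the replicate number as well, where 37.4% of all genes were called. Of 16 S phase genes 14 were called, all higher in replicate 4 than in replicate 1, among them RRM2, a subunit of ribonucleotide reductase (log2 difference 0.64, adjusted p = 3.11e-21), and CDC45, a part of the replicative helicase (0.50, adjusted p = 3.67e-13). Their median difference was 0.29, beside -0.0047 over all genes. The summed level of the 16 genes was 907 to 1223 CPM in replicate 1 and 1231 to 1360 CPM in replicate 4. All 10 mitotic genes were called, 9 of them higher in replicate 4, such as MKI67, the proliferation marker (0.67, adjusted p = 1.29e-15), and 1 lower (CENPF, -0.93, adjusted p = 0.0532, named after its value was seen). The summed level of the 10 mitotic genes was 493 to 1263 CPM in replicate 1 and 653 to 892 CPM in replicate 4. These ranges overlapped. The part of the S phase and mitotic genes in the members' differences was not tested.

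**Figure D4:**
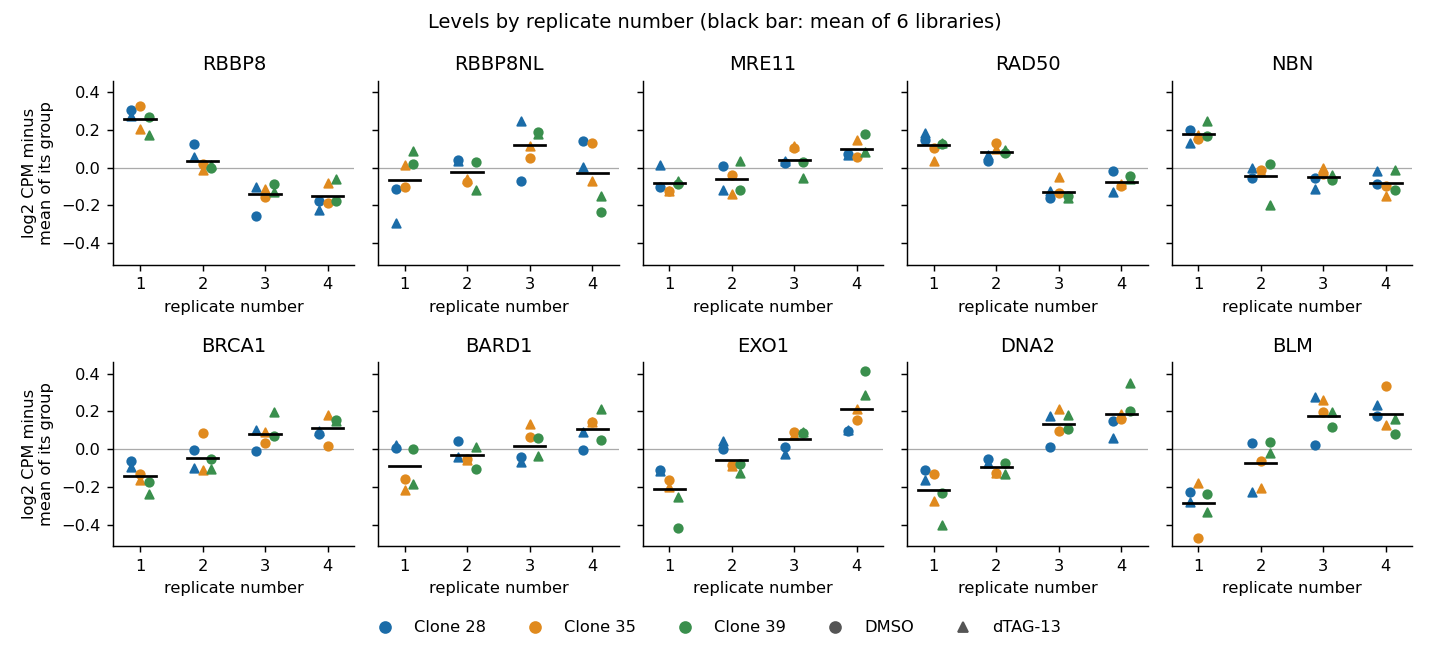
Log2 CPM of each member minus the mean of its own group of 4 libraries, by replicate number, with circles for DMSO, triangles for dTAG-13, colors for the clones and black bars for the mean of 6 libraries. RBBP8, RAD50 and NBN are highest in replicate 1, and MRE11, BRCA1, BARD1, EXO1, DNA2 and BLM are highest in replicate 4.

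Across the 24 libraries, with each clone's mean subtracted, the members showed the same division. RBBP8 correlated with RAD50 at r = 0.82 and with NBN at r = 0.77, and with BLM at r = -0.70. Its r with RBBP8NL was -0.63, but these paralogs were chosen for opposite changes with dTAG-13, which remain in the values. DNA2 correlated with BRCA1 at r = 0.84, with EXO1 at r = 0.83 and with BLM at r = 0.81. The points share the replicate numbers, the treatment and the library depths, so these values are a description over 24 libraries.

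The gene most like RBBP8 among 17579 with at least 10 counts in every library was NUDT4, an inositol pyrophosphate hydrolase (r = 0.97), followed by PATJ, a tight junction scaffold (r = 0.96), and BCAR3, an adaptor named for antiestrogen resistance (r = 0.95). The dTAG-13 library was the higher in 12 of 12 pairs for NUDT4 and PATJ and in 11 of 12 for BCAR3, by 0.24, 0.15 and 0.15 on the log2 scale. All were lower in replicate 4 than in replicate 1, by log2 differences of -0.41, -0.32 and -0.30. The genes most like RBBP8NL were KRT19, a luminal keratin (r = 0.79), STK40, a kinase (r = 0.78), and SPDEF, a luminal transcription factor (r = 0.78). With dTAG-13, SPDEF was at a log2 fold change of -0.14, KRT19 at -0.13 and STK40 at -0.09. These genes were picked for their likeness to the paralogs over the same libraries, so their dTAG-13 values are a description with no test.

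Over 66 genes of the wider repair machinery, in 6 lists, the median log2 fold change with dTAG-13 was 0.011. Of 66 genes in 6 lists, 1 was called, higher, and 3 with the pairs as a block, all higher, against 0.551% and 2.33% of all genes. The gene called was RAD51B, which acts in homologous recombination. It was higher in 12 of 12 pairs, by 0.13 on the log2 scale (SE 0.030, adjusted p = 0.0427). None of 15 further genes that promote resection, of 17 that restrain it, of 9 end joining genes or of 5 genes of the BRCA1-A complex was called with or without the block, and their median fold changes were 0.0058, 0.0060, 0.02 and 0.02. RAD51B was the only call among 15 strand exchange genes, whose median was 0.02.

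Of 5 partners of CtIP in transcription none was called without the block, and LMO4 and ZNF350 were with it. Of all genes 0.551% were called without the block and 2.33% with it, and this list was chosen with earlier results of these data known. ZNF350, a zinc finger repressor that binds BRCA1, was higher in 12 of 12 pairs by 0.26 (SE 0.073, adjusted p = 0.168, or 0.0032 with the block). LMO4, a LIM adaptor that binds CtIP and BRCA1, was higher in 10 of 12 pairs by 0.12 (SE 0.054, adjusted p = 0.718, or 0.0026 with the block). The median of these 5 genes was 0.03.

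Between the clones in DMSO, 17 of the 66 genes were called, or 25.8%, near the background of 28.5%. RPA1, the large subunit of the protein that coats resected strands, was lower in Clone 39 than in Clone 28 by a log2 value of -1.09 (adjusted p over the clones 8.41e-09), and TOP3A, the topoisomerase that works with BLM, by -0.84 (1.08e-06). CTC1, of the complex that fills in resected ends, was lower there by -0.93 (1.31e-07). LMO4 was higher by 0.84 (2.46e-07). Over the replicate numbers 43 of the 66 genes were called, or 65.2% beside 37.4% of all genes. Among 15 genes that promote resection 12 were called, 9 of them higher in replicate 4, such as CDK1, the kinase that activates CtIP (0.58, adjusted p = 8.51e-12). Of the strand exchange genes 13 were called, 10 of them higher in replicate 4, including XRCC3 (0.42, adjusted p = 2.00e-09) and RAD54L (0.48, adjusted p = 5.49e-09). POLQ, the polymerase of microhomology-mediated joining, was higher by 0.58 (adjusted p = 3.57e-16) as 1 of 3 calls among the end joining genes. Of the 17 genes that restrain resection 8 were called, 4 in each direction, with SHLD2, of the shieldin complex, lower in replicate 4 by a log2 value of -0.29 (adjusted p = 7.37e-07). The calls were 2 of 5 in the BRCA1-A complex and 5 of 5 among the partners of CtIP in transcription, 4 of them lower in replicate 4.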

How the data were processed

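PRO-seq libraries of 24 samples were analysed from the count table that the authors deposited, which holds unnormalized whole reads. Per the labels and the methods, reads were trimmed with cutadapt 1.8.1, deduplicated by unique molecular identifiers with fqdedup, reverse complemented with seqtk, aligned to hg38 with Bowtie2 2.4.4, handled with SAMtools 1.9 and counted in genes with bedtools. The annotation and the strand setting are not given in the sources used here. Deduplication removes PCR copies, so counts follow molecules.

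Samples were grouped by the clone and treatment in their titles. Symbols and spans came from GENCODE v44, promoter windows from RefSeq. Genes were kept by filterByExpr (minimum count 10), leaving 22326, libraries were scaled by TMM and fitted with the robust quasi-likelihood test of edgeR 4.0.16 in R 4.3.3 (limma 3.58.1). P-values were adjusted by the Benjamini-Hochberg method over all genes tested, with a threshold of 0.1. Models held clone and treatment, the 6 groups, or clone, treatment and replicate number. The block for treatment effects had a term for each of the 12 pairs of libraries, and that for clone levels a term for each replicate number. CPM are TMM-scaled, log2 CPM used a prior count of 2, and an SE is the log2 fold change divided by the root of its F statistic. The members and gene lists were chosen with earlier results of these data known. Genes named are all members, up to 3 genes past the threshold per list and result by smallest p, the 3 genes most correlated with each paralog, flanking genes and overlapping genes.

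Replicate numbers pair the libraries, since the labels state a shared harvest of the treatments. Deviations from group means of same-numbered libraries correlated at 0.185 on average (0.0926 to 0.318, 12 pairs), and other pairs at -0.061. Between replicates, chi-square over its degrees of freedom was 1.64 to 13.6 over 36 pairs, so no library was a copy of another. Over all genes together the spread between dishes thus exceeded counting error. This was not tested per gene. Counting error alone was 14.9% for RBBP8NL and 13.7% for BLM at their lowest counts. The fit was tested on simulated data with 200 changed genes. For the treatment effect it recovered 47.8% of changes of 0.25, 79.1% of 0.5 and 98.5% of 1 on the log2 scale. For changes of these sizes it recovered 29.9%, 46.3% and 75.8% between clones. For the replicate number it recovered 22.4%, 58.2% and 97%. The simulated libraries were drawn independently, without the correlation of same-numbered libraries. Alternatives were RLE size factors, no filter, DESeq2 1.42.0, a threshold of 0.05, the replicate block, DMSO libraries alone, and leaving out each library or clone.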

Additional observations from a re-analysis of the deposited data

Results flagged for a closer look

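In 60 groups of 4 libraries (10 members in 6 groups), 1 held a library far from the others. NBN in Clone 28 with DMSO was at 75.6 CPM in replicate 1 and between 61.9 and 63.3 CPM in the other replicates, a gap of 0.889 of the group's range, which is above Dixon's critical value. Chance flags about 1 in 20 groups, which is 3 of 60. NBN was also highest in replicate 1 over the 6 groups.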

How the results depend on the processing

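None of the 8 members chosen by function was called for the treatment under any alternative run. Within clones the count of calls among them went from 0 to 1 with the replicate block (NBN in Clone 28), and clone calls among the members went from 4 to 9 of 10. The block moved genes called for the treatment from 123 to 521 and for the difference between clones from 0 to 1, and per clone from 12 to 263 in Clone 28, from 0 to 21 in Clone 35 and from 0 to 16 in Clone 39. Genes called for the treatment were 197 without the filter and 64 at a threshold of 0.05. They were 1 without Clone 28, 41 without Clone 35 and 47 without Clone 39. Without 1 library they ran from 66 to 151, with over 1.5 times fewer in 4 cases, all in Clone 28: 80 and 66 without DMSO replicates 3 and 4, and 76 and 69 without dTAG-13 replicates 1 and 2. Without the filter 6 genes were called for the difference between clones. Fewer libraries enter the fits without 1 library or 1 clone, whereas the fits without the filter, at the threshold of 0.05 and with the block hold all 24. Otherwise the cause of these shifts was not tested. Values of members near 0 changed sign: BRCA1 was at -0.00059 and BLM at 0.034 without Clone 28, and DNA2 at 0.033 without Clone 39. Without 1 library BRCA1 ran from -0.0025 to 0.037, EXO1 from -0.0086 to 0.072, DNA2 from -0.046 to 0.025 and BLM from -0.059 to 0.014, and RBBP8NL in replicate 4 against 1 from -0.026 to 0.091. RBBP8 ran from 0.22 to 0.29 and RBBP8NL from -0.33 to -0.27 without 1 library, and from 0.22 to 0.28 and -0.36 to -0.23 without 1 clone. The clone call of BRCA1 was lost without Clone 28 DMSO replicate 4 (adjusted p = 0.105) and Clone 39 DMSO replicate 1 (0.107), and clone calls among the members ran from 3 to 6. Clone calls were gained for EXO1 with DESeq2 (adjusted p = 0.0490) and for BLM without the filter (0.0498). RLE size factors changed no call of a member and called 121 genes for the treatment. RBBP8NL and BLM had the fewest counts.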
